A study of Mus musculus with 10 samples.

Results

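Calcineurin is the calcium- and calmodulin-dependent protein phosphatase that is most abundant in neurons, and 9 genes of its subunits and regulators were followed in mouse cortex. The genes were Ppp3r1, Ppp3ca, Ppp3cb, Ppp3cc, Rcan1, Rcan2, Rcan3, Nfatc3 and Akap5. They were taken by symbol from the 53700 gene identifiers of the count tables, and all 9 passed the filter on low counts that left 19268 genes. The members were chosen by function around Ppp3r1, with the results of the genotype comparison already known, so the values that selected the set are those of that comparison. Ppp3r1 had passed the threshold of DESeq2 in that comparison, at an adjusted p of 0.0497. The differences of the members between genotypes are therefore given as descriptions with no test.

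The cortices came from 10 female mice aged 4 months, all of them 5XFAD, a line with human transgenes, mutated as in inherited Alzheimer's disease, under the mouse Thy1 promoter. The labels give 5XFAD, Idol and Camk2a-cre for every mouse and then cKO for 5 of them, called labelled cKO here, and WT for the other 5, called labelled WT. They do not say whether the WT mice carry Cre or floxed alleles. In the cKO, floxed Idol, the gene also known as Mylip, is deleted by Cre under the Camk2a promoter, which is active in forebrain excitatory neurons, so that other cells of the cortex keep the gene. Libraries were made with the QuantSeq 3′ kit, which reads transcripts from their 3′ ends, and counts were therefore not divided by transcript length before genes were compared. Levels are CPM, the counts of a gene scaled to the reads of its library with TMM factors. Log2 fold changes are labelled cKO over labelled WT, with the standard error (SE) of the edgeR fit.

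Reads counted on genes ranged from 4320504 to 7466192 per labelled WT library and from 5148499 to 7246659 per labelled cKO library. Mylip, the targeted gene, was at 11.2 ± 2.27 CPM in labelled WT libraries and at 14.8 ± 4.90 CPM in labelled cKO libraries (SD, n = 5 each). The groups overlapped and the log2 fold change was 0.39 (SE 0.25) (edgeR quasi-likelihood test, Benjamini-Hochberg adjusted p = 0.777). These counts come from the 3′ ends of transcripts and did not show the deletion that the labels give. The deleted exons were not counted separately, so the counts cannot decide whether those exons were lost. By qPCR of cortex, the paper reported lower Idol mRNA in the neuronal knockout mice than in controls. Groups are called by their labels throughout. Markers of excitatory neurons, a list that also holds Snap25 and Rbfox3 of neurons in general, summed to between 5036 and 5772 CPM in labelled WT libraries. In labelled cKO libraries the sum lay between 5003 and 5559 CPM, and 0 of 8 passed the test. Markers of microglia were lower in labelled cKO libraries, with sums of 231 to 268 CPM against 291 to 421 CPM and no overlap. All 8 had a negative log2 fold change, the median was -0.47, and 3 of them (Csf1r, Cx3cr1 and C1qb) passed the test. Oligodendrocyte markers had a median of -0.25 with 8 of 8 negative, and astrocyte markers one of -0.18 with 7 of 8 negative. Past the threshold were 0 of 8 and 1 of 8 (Gfap, lower). The medians were -0.04 for excitatory neurons (5 of 8 negative), 0.01 for inhibitory neurons (4 of 8) and 0.06 for endothelial cells (2 of 8). In each of these lists 0 of 8 were past the threshold. In bulk tissue, fewer cells of a type and less RNA per cell cannot be told apart. The part of cell composition in the member values below was not tested.

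Calcineurin is a heterodimer of a catalytic subunit, calcineurin A, and a calcium-binding regulatory subunit, calcineurin B. Calcium binds both calcineurin B and calmodulin, and calmodulin then displaces the autoinhibitory segment of calcineurin A. The active enzyme dephosphorylates NFAT transcription factors, which enter the nucleus, and at synapses it acts on receptors, channels and vesicle proteins and is required for forms of long-term depression. In models of Alzheimer's disease its activity has been linked to the loss of dendritic spines that amyloid beta brings about. Ppp3ca, Ppp3cb and Ppp3cc encode the alpha, beta and gamma forms of calcineurin A, and Ppp3r1 encodes calcineurin B of somatic tissues. Rcan1, Rcan2 and Rcan3 encode regulators that bind calcineurin A and can inhibit it. Nfatc3 encodes an NFAT factor found in neurons, and Akap5 encodes the anchoring protein AKAP79/150, which holds calcineurin together with protein kinase A near postsynaptic receptors and L-type calcium channels.

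Rcan1 has alternative first exons, and the downstream start is known as a target of NFAT, through which calcineurin raises the level of its own inhibitor. Promoter windows of RefSeq, from 250 bases before to 50 bases after a start, were found for 7 of the 9 members, 11 windows in all. No entry was held for Ppp3ca and Ppp3cc. The RefSeq windows were placed in GRCm39 by exact match. The windows shown contrast the upstream and downstream starts of Rcan1 with the start of Ppp3r1, the member with separated groups. Capitals mark the NFAT core GGAAA or, for the other strand, TTTCC.
Rcan1, upstream start, chr16:92263008-92263307, minus strand: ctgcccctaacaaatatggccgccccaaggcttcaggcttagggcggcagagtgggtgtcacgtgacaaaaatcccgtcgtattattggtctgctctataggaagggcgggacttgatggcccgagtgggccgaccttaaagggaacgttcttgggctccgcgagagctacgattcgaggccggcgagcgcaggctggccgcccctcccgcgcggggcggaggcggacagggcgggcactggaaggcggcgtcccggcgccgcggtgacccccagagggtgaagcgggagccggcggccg
Rcan1, downstream start, chr16:92196917-92197216, minus strand: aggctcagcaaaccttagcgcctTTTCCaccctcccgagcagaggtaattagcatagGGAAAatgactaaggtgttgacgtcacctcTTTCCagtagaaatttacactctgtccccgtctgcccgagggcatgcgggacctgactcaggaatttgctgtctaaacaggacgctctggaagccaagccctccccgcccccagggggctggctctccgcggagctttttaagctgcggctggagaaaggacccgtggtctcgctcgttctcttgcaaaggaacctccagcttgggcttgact
Ppp3r1, chr11:17109048-17109347, plus strand: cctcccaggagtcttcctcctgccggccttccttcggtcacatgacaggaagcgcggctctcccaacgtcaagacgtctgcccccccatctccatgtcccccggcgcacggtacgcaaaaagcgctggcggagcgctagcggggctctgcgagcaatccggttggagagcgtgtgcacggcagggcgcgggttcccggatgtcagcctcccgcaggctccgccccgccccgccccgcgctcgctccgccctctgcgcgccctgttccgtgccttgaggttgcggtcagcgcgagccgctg
The upstream Rcan1 window lies 4698 bases inside the annotated gene and has 0 cores. The downstream window lies 70789 bases inside the gene and has 3 cores, a number that 9.42% of 32851 promoter windows of the same length reach. The Ppp3r1 window has 0 cores, and at least 1 core was in 61.3% of all windows. The Ppp3cb window had the most cores of the 11 windows, 4, and 2.65% of all windows had at least that many. That share is for a single window and does not allow for the choice of the highest of 11. Windows of Rcan2, Rcan3, Nfatc3 and Akap5 had 0 to 2 cores. These matches describe letters of the sequence and are not binding sites. All 7 annotated coding transcripts of Rcan1 share 1 3′ end although they use 4 starts, so the 3′ counts below add the products of both starts and cannot separate them.

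The members spanned a wide range of levels, and the order was led by the calcineurin enzyme itself. Ppp3ca had a mean of 1934 CPM over the 10 libraries and was the gene at rank 22 of 19268. Ppp3r1 followed at 478 CPM (rank 152), Ppp3cb at 160 CPM (rank 795) and Rcan2 at 105 CPM (rank 1366). Akap5 was at 49.5 CPM, Rcan1 at 40.4 CPM, Nfatc3 at 26.5 CPM, Rcan3 at 18.2 CPM and Ppp3cc at 15.7 CPM (rank 7198). Neighbours in this order were compared within each library with an exact two-sided sign-flip permutation test over the 10 libraries, with Benjamini-Hochberg adjustment over the 8 pairs. The order was taken from the same 10 libraries, so the pairs and their directions were not set before the test. The smallest p that the test can give is 0.00195.

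**Figure D1:**
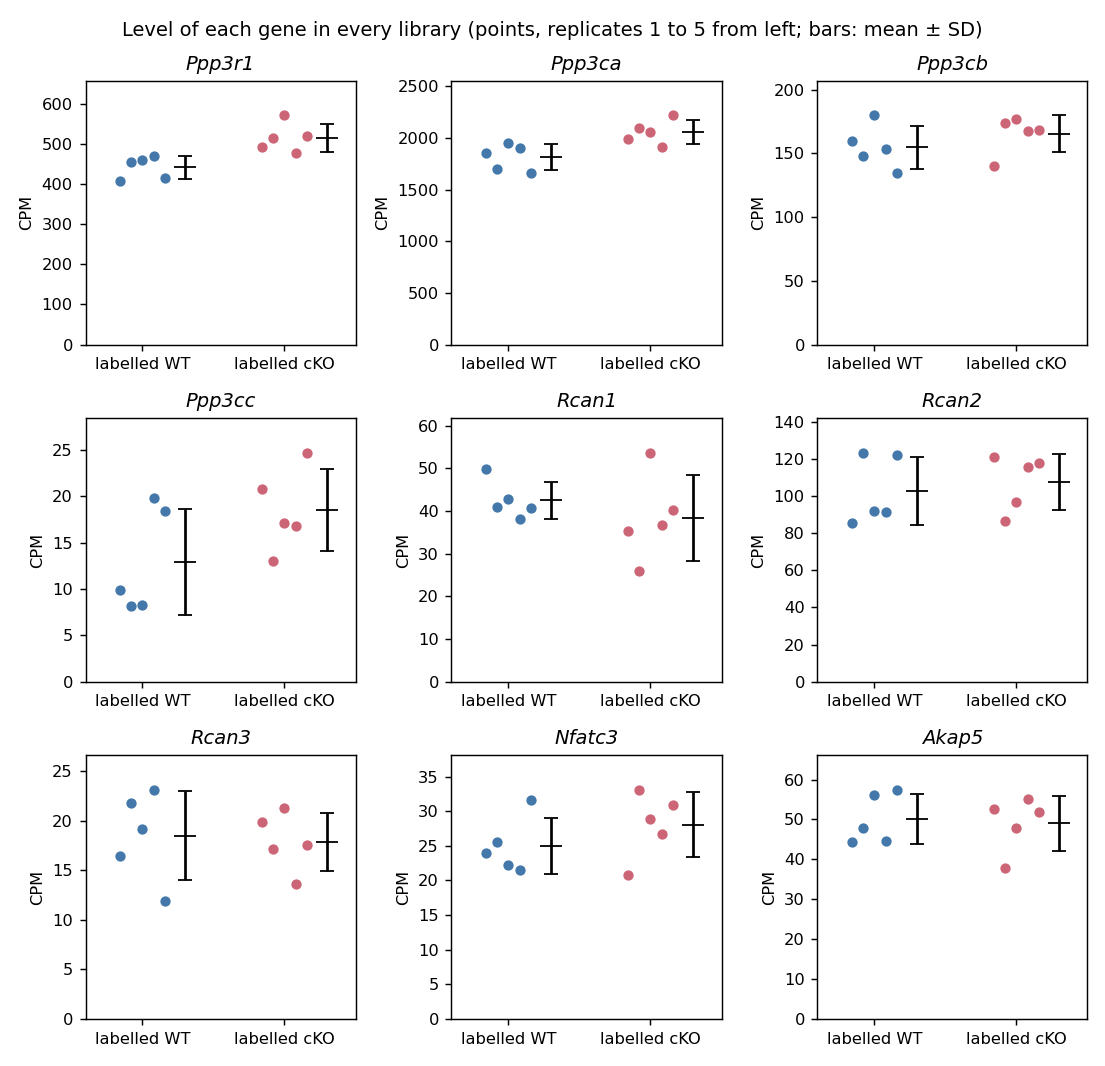
Level of each of the 9 genes (CPM, with an axis from 0 for each gene) in the 5 labelled WT and 5 labelled cKO libraries, with 1 point per library and black bars for the mean ± SD of each group. The mean over all libraries is 1934 CPM for Ppp3ca and 15.7 CPM for Ppp3cc, and of the 9 genes Ppp3r1 alone has groups that do not overlap.

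Ppp3ca was 4.05-fold above Ppp3r1, a mean log2 difference of 2.02 with an SD of 0.10 over libraries (adjusted p = 0.00391, exact sign-flip permutation test, higher in 10 of 10 libraries). Ppp3r1 was 2.98-fold above Ppp3cb, Ppp3cb 1.53-fold above Rcan2 and Rcan2 2.11-fold above Akap5, each in 10 of 10 libraries with the same adjusted p by that exact test. The steps among the regulators were smaller. Akap5 exceeded Rcan1 1.23-fold in 8 of 10 libraries (adjusted p = 0.0134, exact test), Rcan1 exceeded Nfatc3 1.51-fold in 9 of 10 (0.00625) and Nfatc3 exceeded Rcan3 1.46-fold in 9 of 10 (0.00781). Rcan3 and Ppp3cc at the lower end were not separated, with a ratio of 1.20 and a higher Rcan3 in 6 of 10 libraries (p = 0.236, exact test). The last 500 bases of Nfatc3 and of Ppp3cc, counted from the 3′ end, lie in exons of antisense genes. The strand setting of the counting is not stated in the sources used here, and its effect on their places in the order was not tested.

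Among the catalytic subunit genes, Ppp3ca gave nearly all of the counts. Its share of the summed counts of Ppp3ca, Ppp3cb and Ppp3cc was 91.5% ± 0.180 in labelled WT libraries and 91.8% ± 0.521 in labelled cKO libraries (SD, n = 5 each). Ppp3cb took 7.81% ± 0.427 and 7.39% ± 0.624, and Ppp3cc took 0.657% ± 0.300 and 0.824% ± 0.179. The Ppp3cc share was uneven in the labelled WT group. It was 0.490%, 0.443% and 0.387% in replicates 1 to 3 and 0.953% and 1.01% in replicates 4 and 5, and the Clopper-Pearson 95% intervals of the first 3 did not reach those of the last 2. These intervals cover counting error only. In labelled cKO libraries the share lay between 0.572% and 1.03%. The 3′ end of Ppp3cc lies inside an exon of the antisense gene Gm49417, which had 11 counts in all. The strand setting of the counting is not stated in the sources used here, so reads of the pair cannot be told apart with certainty.

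**Figure D2:**
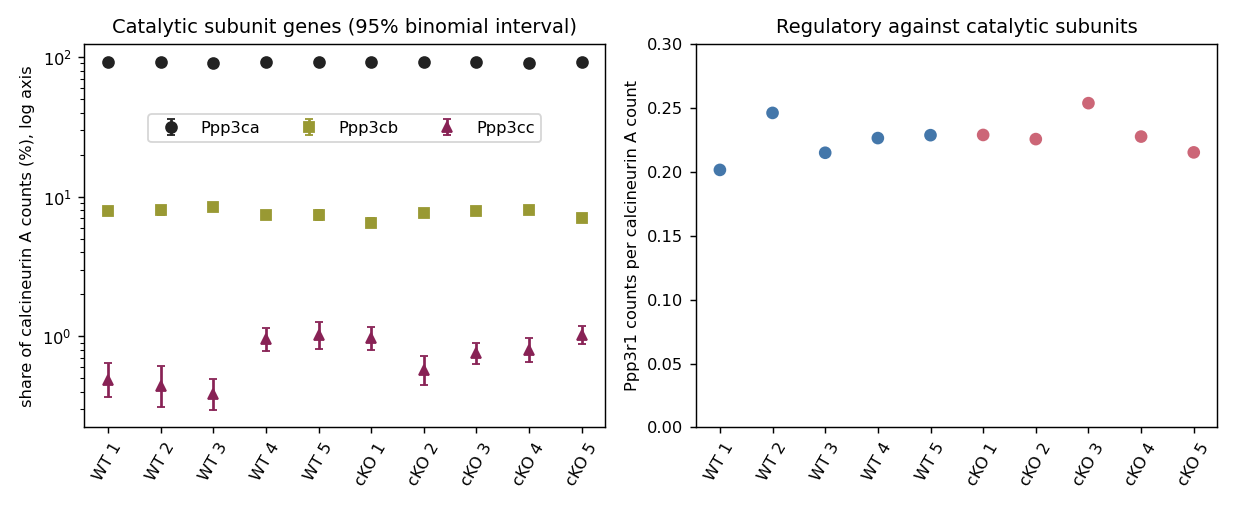
Share of each catalytic subunit gene in the calcineurin A counts (left, percent, log axis, with 95% binomial intervals) and counts of Ppp3r1 per calcineurin A count (right) in each library. Ppp3ca stays above 91% throughout, Ppp3cc falls under 0.5% in labelled WT replicates 1 to 3, and the right-hand values of the groups overlap.

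Calcineurin B was far less counted than calcineurin A. There were 0.227 ± 0.0150 counts of Ppp3r1 per calcineurin A count (SD, n = 10), with a range of 0.201 to 0.246 in labelled WT libraries and of 0.215 to 0.254 in labelled cKO libraries. The groups overlapped in this ratio. The 3 regulators of the Rcan family together gave 0.0835 ± 0.0137 counts per calcineurin A count in labelled WT libraries and 0.0734 ± 0.00989 in labelled cKO libraries (SD, n = 5 each). Rcan2 was the main family member with 64.1% of the Rcan counts, against 24.7% for Rcan1 and 11.2% for Rcan3.

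Of the differences between genotypes, that of calcineurin B was the one that chose the set. Ppp3r1 (ENSMUSG00000033953, GRCm39 chr11:17109192-17150382, plus strand) was at 407, 456, 460, 469 and 415 CPM in labelled WT replicates 1 to 5 and at 492, 515, 570, 478 and 519 CPM in labelled cKO replicates 1 to 5. Every labelled cKO library was above every labelled WT library, although the lowest of the former, at 478 CPM, was close to the highest of the latter, at 469 CPM. The means were 441 ± 28.4 and 515 ± 35.3 CPM (SD, n = 5 each), a log2 fold change of 0.22 (SE 0.08). Counts of 1850 to 4345 per library stood behind these values. The gene Dnaaf10 on the same strand runs across the 3′ end of Ppp3r1 and shares 462 exon bases with it, of which 0 are in the last 500 bases, and it had 362 counts in all.

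Ppp3ca, the main catalytic gene, had a similar pattern with 1 library across the line. Ppp3ca (ENSMUSG00000028161, chr3:136375445-136643491, plus strand) was at 1850, 1696, 1952, 1900 and 1663 CPM in labelled WT replicates and at 1991, 2097, 2055, 1914 and 2217 CPM in labelled cKO replicates. Of the labelled cKO libraries, 4 of 5 were above every labelled WT library, and replicate 4 was below labelled WT replicate 3. The means were 1812 ± 127 and 2055 ± 114 CPM, with a log2 fold change of 0.18 (SE 0.06).

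Ppp3cb and Ppp3cc overlapped between the groups. Ppp3cb (ENSMUSG00000021816, chr14:20548406-20596668, minus strand) was at 159, 148, 180, 153 and 134 CPM in labelled WT replicates and at 140, 173, 177, 168 and 168 CPM in labelled cKO replicates, and its log2 fold change was 0.09 (SE 0.09). Labelled cKO replicate 1 was the low library of its group. Ppp3cc (ENSMUSG00000022092, chr14:70454485-70526989, minus strand) was at 9.88, 8.21, 8.29, 19.8 and 18.4 CPM in labelled WT replicates and at 20.8, 13.1, 17.1, 16.8 and 24.7 CPM in labelled cKO replicates. The means were 12.9 ± 5.69 and 18.5 ± 4.42 CPM and the log2 fold change was 0.52 (SE 0.24), the largest of the members in size and in error, on 35 to 172 counts per library.

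The 3 Rcan regulators overlapped between the groups. Rcan1 (ENSMUSG00000022951, chr16:92188840-92267755, minus strand) was at 49.8, 40.8, 42.9, 38.2 and 40.6 CPM in labelled WT replicates and at 35.3, 25.9, 53.7, 36.7 and 40.2 CPM in labelled cKO replicates. Labelled cKO replicate 3 was the highest and replicate 2 the lowest of all 10 libraries, so that the labelled cKO group enclosed the labelled WT group. The log2 fold change was -0.14 (SE 0.15). It was -0.30 without labelled cKO replicate 3 and -0.03 without labelled cKO replicate 2. Rcan2 (ENSMUSG00000039601, chr17:44112216-44350407, plus strand) ranged from 85.3 to 123 CPM in labelled WT libraries and from 86.6 to 121 CPM in labelled cKO libraries, with a log2 fold change of 0.07 (SE 0.11). Rcan3 (ENSMUSG00000059713, chr4:135139619-135161180, minus strand) ranged from 11.9 to 23.1 CPM and from 13.6 to 21.3 CPM, with a log2 fold change of -0.05 (SE 0.20). For both genes the labelled cKO range lay inside the labelled WT range.

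The NFAT factor and the anchoring protein overlapped between the groups too. Nfatc3 (ENSMUSG00000031902, chr8:106785472-106857175, plus strand) ranged from 21.4 to 31.6 CPM in labelled WT libraries and from 20.8 to 33.1 CPM in labelled cKO libraries, with a log2 fold change of 0.17 (SE 0.17). Its 3′ end overlaps that of the antisense gene Esrp2, to which 0 reads were assigned in the 10 libraries. Akap5 (ENSMUSG00000021057, chr12:76371613-76382157, plus strand) ranged from 44.4 to 57.5 CPM and from 37.7 to 55.2 CPM, with a log2 fold change of -0.03 (SE 0.13).

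**Figure D3:**
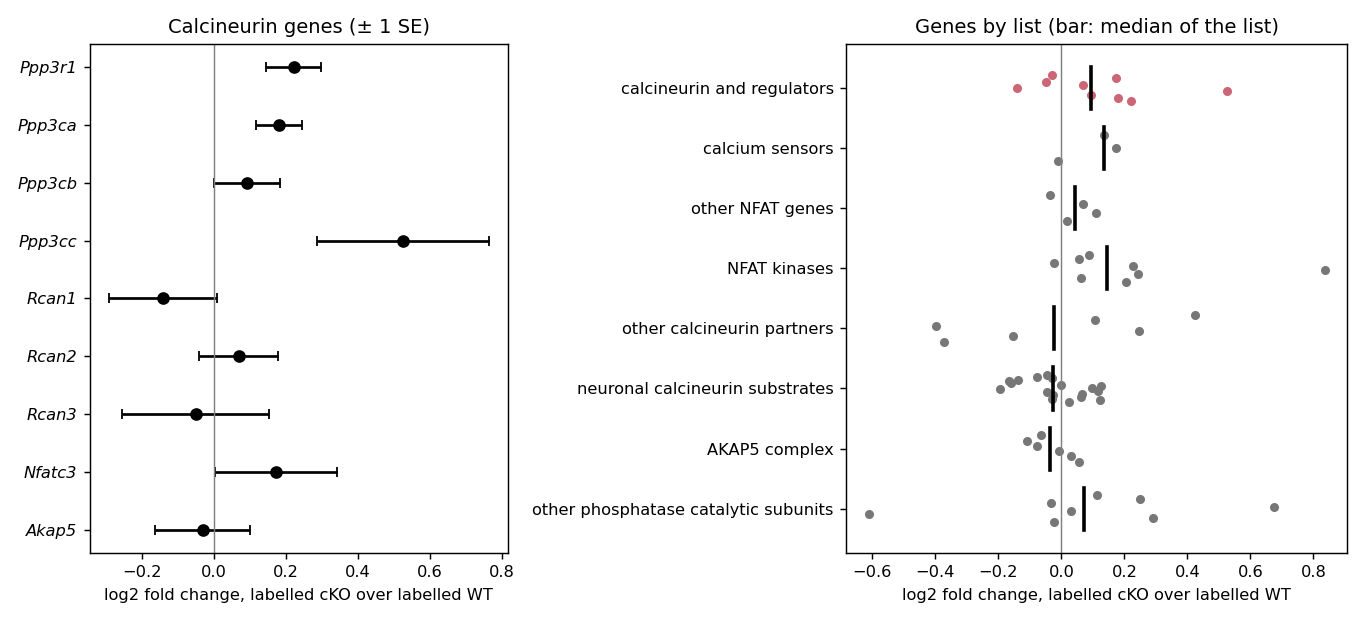
Log2 fold change, labelled cKO over labelled WT, from the edgeR fit, for each member with bars of 1 SE (left) and for the members (red) and 7 pathway lists (grey), with 1 point per gene and a bar at the median of each list (right). The members run from -0.14 (Rcan1) to 0.52 (Ppp3cc), the shortest bars belong to Ppp3ca and Ppp3r1, which have the most counts, and the medians of the lists lie between -0.04 and 0.15.

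Of the 9 members, 6 had a positive and 3 a negative log2 fold change, and the median was 0.09. Over all 19268 genes the median was -0.00 and 49.9% were positive. The edgeR quasi-likelihood test passed 0 of 9 members at an adjusted p of 0.05, where it passed 42 genes or 0.218% of all, 0.0571% of all as higher and 0.161% as lower in labelled cKO libraries. DESeq2 passed 1 of 9, Ppp3r1, and gave 2 of 9 no adjusted p, where it passed 73 genes or 0.379% of all. That share is of all 19268 genes, including those to which DESeq2 gave no adjusted p. An unadjusted edgeR p under 0.05 was reached by 7.95% of all genes. Separated groups with labelled cKO higher were found for 1 of 9 members and for 0.576% of all genes. With labelled cKO lower they were found for 0 of 9 members and 0.721% of all genes, and in either direction for 1 of 9 and 1.3%. Nothing is read from these counts of members, since the same contrast chose the set.

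The members were then compared across libraries after each group's mean had been subtracted, which leaves out the genotype contrast. Of 36 pairs, 0 passed adjustment in an exact within-group permutation test (14400 arrangements, two-sided, Benjamini-Hochberg over the 36 pairs), and 3 had an unadjusted p under 0.05. The highest r was that of Ppp3r1 and Rcan3, at 0.76 (exact permutation p = 0.016, adjusted p = 0.498). Its Spearman rho was 0.81 (exact permutation p = 0.016, adjusted p = 0.57), and r was 0.80 without the 2 libraries farthest from the Ppp3r1 median. In each pair the 2 libraries left out were those farthest from the median of the first gene named. Libraries extreme only in the other gene stayed in. Rcan2 and Akap5 had an r of 0.67 (exact permutation p = 0.041, adjusted p = 0.498), a rho of 0.61 (exact permutation p = 0.089) and an r of 0.75 without the 2 farthest libraries. Ppp3cb and Rcan2 had an r of -0.69 (exact permutation p = 0.041, adjusted p = 0.498), a rho of -0.67 (exact permutation p = 0.048) and an r of -0.54 without the 2 farthest libraries. The partners of the enzyme, Ppp3r1 and Ppp3ca, had an r of 0.44 (exact permutation p = 0.225, adjusted p = 0.898), with a rho of 0.39 (exact permutation p = 0.299) and an r of 0.69 without the 2 farthest libraries.

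**Figure D4:**
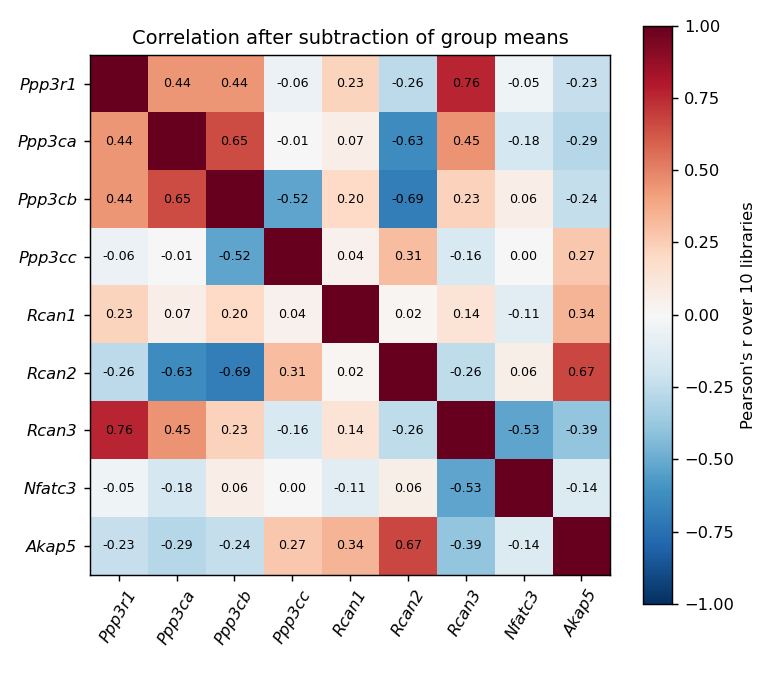
Pearson r of each pair of members (rows and columns) over the 10 libraries after subtraction of the group mean log2 CPM, in numbers and as a colour from -1 (blue) to 1 (red). The highest value is 0.76 (Ppp3r1 with Rcan3) and the lowest -0.69 (Ppp3cb with Rcan2), and 0 of 36 pairs passed the adjusted exact permutation test.

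The genes whose levels ran most like a member's over the 10 libraries, again after subtraction of the group means, were taken as a description from the 6264 genes with a mean of at least 20 CPM. For Ppp3r1 these were Phf20 (r = 0.93), Hpcal1 (0.90) and Dcaf10 (0.87), and for Ppp3ca they were Akirin2 (0.98), Map2k1 (0.97) and Tjp1 (0.93). Ppp3cb ran most like Eif5a (0.93), Cct6a (0.93) and Habp4 (0.92), Rcan2 like Katnip (0.92) and Ubr2 (0.91), and Nfatc3 like Bod1l (0.95), Sin3a (0.93) and Srrm2 (0.91). No gene was shared between these 5 short lists. The highest of 6264 values of r over 10 libraries can be this high by chance, and no link between these genes was tested.

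Genes that act with, before or after calcineurin, 53 in 7 lists, were read from the same edgeR fit. Of the 53 genes, 0 passed at an adjusted p of 0.05 in either direction, by edgeR or by DESeq2, which gave 12 of the genes no adjusted p. An unadjusted edgeR p under 0.05 was reached by 5 of the 53, and by 7.95% of all genes tested. Calm2, which encodes the calcium sensor calmodulin, was at 1265 ± 179 CPM in labelled WT libraries and at 1426 ± 58.6 CPM in labelled cKO libraries (log2 fold change 0.17, SE 0.07, adjusted p = 0.499). Calm3, which encodes the same protein, differed by 0.14 (adjusted p = 0.748).

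The NFAT arm gave no called gene. Of 4 other NFAT genes, 3 had a positive log2 fold change and the median was 0.04, which ran from -0.11 (without labelled cKO replicate 3) to 0.12 (without labelled cKO replicate 5) when each library was left out in turn. Nfat5, an NFAT relative that calcineurin does not regulate directly, was the most counted of them (-0.04, adjusted p = 0.984), and Nfatc2 was at 0.11 (adjusted p = 0.982). Of the 8 kinases that phosphorylate NFAT and oppose calcineurin, 7 had a positive value and the median was 0.15. Dyrk1a was at 59.5 ± 4.0 and 70.5 ± 7.8 CPM (0.24, SE 0.12, adjusted p = 0.596) and Dyrk2 differed by 0.23 (adjusted p = 0.720). Gsk3b (0.06, adjusted p = 0.927) and Csnk1a1 (-0.02, adjusted p = 0.984) had the highest levels of the list.

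Among 6 other partners of calcineurin, 3 values were positive and the median was -0.02. This median turned with the choice of genes and libraries, at 0.17 with the filterByExpr filter and at -0.06 (without labelled cKO replicate 5) to 0.12 (without labelled WT replicate 1) when each library was left out in turn. Ppia, which encodes cyclophilin A, the receptor of ciclosporin, was at 35.3 ± 9.6 and 47.7 ± 5.6 CPM (0.42, SE 0.15, adjusted p = 0.403), and this gene has many processed copies in the genome that can take up its reads. Fkbp1a, the receptor of tacrolimus, was at 0.11 (adjusted p = 0.839), and Chp1, a calcineurin B homologue, at 0.24 (adjusted p = 0.658). Of 18 neuronal substrates, 7 values were positive and the median was -0.03. Synj1, a phosphatase of synaptic vesicle recycling, was at -0.03 (adjusted p = 0.982) and Mapt, which encodes tau, at -0.05 (adjusted p = 0.961). Among its genes at 5 CPM or more, the largest differences were those of Crtc1, a coactivator of CREB (-0.19, adjusted p = 0.764), and Bad, a regulator of apoptosis (-0.16, adjusted p = 0.931).

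The 6 genes of the AKAP5 complex had 2 positive values and a median of -0.04. Dlg4, which encodes the postsynaptic scaffold PSD-95, was at -0.11 (adjusted p = 0.845), Prkacb, a catalytic subunit of protein kinase A, at 0.03 (adjusted p = 0.976) and Prkar2b, a regulatory subunit, at -0.08 (adjusted p = 0.956). Catalytic subunits of the other phosphatases had 5 positive values of 8 and a median of 0.07, which was 0.24 without labelled WT replicate 4 and 0.03 without labelled WT replicate 1. Ppp1cb was at 119 ± 17.9 and 145 ± 5.53 CPM (0.29, SE 0.10, adjusted p = 0.342) and Ppp2cb, at lower levels, differed by 0.68 (SE 0.31, adjusted p = 0.560). Ppp1ca (-0.03, adjusted p = 0.985) and Ppp2ca (0.03, adjusted p = 0.982) had the highest levels among them.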

How the data were processed

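RNA of 10 cortices was made into QuantSeq 3′ libraries and sequenced as single reads. The authors trimmed adapters and poly(A), aligned reads with STAR 2.7.3a to GRCm39, counted them with htseq-count and deposited raw counts per Ensembl gene with no normalization. The strand setting is not given in the sources used here. Of 53700 identifiers, 52610 were given a symbol from a GENCODE annotation of the same build. Reads placed on no gene were 31.3% to 39.9% of those kept and were left out.

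The 9 members and all gene lists were chosen with earlier results of these data known. Genes with a total count of 10 or less were removed, and edgeR 4.0.16 (TMM, glmQLFit, glmQLFTest, group only) in R 4.3.3 was fitted to 19268 genes with Benjamini-Hochberg adjustment at 0.05. DESeq2 1.42.0 was an alternative. Order and covariation used log2 CPM with a prior count of 0.5 and exact permutation tests. Nothing in the labels says how animals were paired or housed, and p-values measure the spread between these animals only. In each pathway list, the text names every called gene, the 2 with the highest level and the 2 with the largest change among those at 5 CPM or more. In the lists of like genes it names the 3 with the highest r. Some genes that these rules cover are not reported here. The alternatives were DESeq2, its size factors, filterByExpr, no filter, a robust fit, a prior count of 2, the replicate number as a block and each library left out in turn. The edgeR fit was checked on simulated counts. Proteins, nuclei and histology were not analysed here.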

Additional observations from a re-analysis of the deposited data

Results flagged for a closer look

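In 26 groups of 5 libraries, the highest and the lowest value were compared with their neighbours by Dixon's test, in which chance alone marks about 1 group in 20, and 2 groups were marked. Labelled cKO replicate 1 had 140 CPM of Ppp3cb, apart from the other 4 labelled cKO libraries. Labelled WT replicate 3 had a Ppp3ca share of 91.2% of the calcineurin A counts, apart from the other 4 labelled WT libraries.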

How the results depend on the processing

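Genes past the edgeR threshold numbered 42 of all tested, against 73 with DESeq2, 69 with DESeq2 and its filtering aimed at 0.05 (an alternative chosen after seeing the data) and 103 with no filter on low counts. Leaving out each library in turn gave 26 to 72 genes. The count was 26 without labelled WT replicate 2, 72 without labelled cKO replicate 1, and 27 without labelled cKO replicate 4 and again without replicate 5. Members past the threshold numbered 0 with every setting but DESeq2 at its default filtering, where the 1 member was Ppp3r1. Its adjusted p of 0.0497 became 0.0515 with the filtering aimed at 0.05. The cause of these shifts was not tested.

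Same-numbered libraries did not deviate together (r from -0.053 to 0.022, own number best in 0 of 5). With only 5 numbers to compare, this check cannot decide whether animals were paired by litter or handling, and the labels do not say. With the replicate block 112 genes and 0 members passed.

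The log2 fold changes of Ppp3r1 (0.18 to 0.25), Ppp3ca (0.15 to 0.21), Ppp3cb (0.05 to 0.15), Ppp3cc (0.39 to 0.74), Rcan2 (0.01 to 0.14) and Nfatc3 (0.11 to 0.27) stayed positive when each library was left out in turn, and that of Rcan1 stayed negative (-0.30 to -0.03). Those of Rcan3 (-0.17 to 0.04) and Akap5 (-0.08 to 0.05) changed sign. So did, among the pathway genes, Nfatc2 (-0.15 to 0.33), Nfat5 (-0.10 to 0.036), Csnk1a1 (-0.051 to 0.010), Ppp1ca (-0.079 to 0.025) and Ppp2ca (-0.023 to 0.056). List medians of the other NFAT genes (-0.11 to 0.12) and other calcineurin partners (-0.06 to 0.12) changed sign too, and those of the substrates (-0.037 to -0.0038), the AKAP5 complex (-0.058 to -0.0037), the NFAT kinases (0.10 to 0.18) and the other phosphatases (0.03 to 0.24) did not. The order of member levels kept each call in all 96 combinations of a pair and an alternative. Depth limits Ppp3cc, Rcan3 and Nfatc3 most, with as few as 35, 53 and 109 counts in a library.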
